A study of Rattus norvegicus with 2 samples.

Results

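Methionine, one-carbon, folate and polyamine metabolism in rat liver was followed through a fixed list of 37 genes. Membership was by gene name; the list was drawn up with earlier results of these data known. Each gene was represented by the brightest of its probe sets annotated to exactly 1 gene, where brightest means the highest mean signal of the arrays. A match was found for 36 of the 37, of 14217 genes represented on the array, and Pipox, a sarcosine oxidase gene, was not analysed here. The series held 2 Affymetrix arrays of liver RNA from male Wistar rats aged 2 months, 1 array per group. The fasted group had gone without food for 18 h and received no fat. The olive oil group had the same 18 h fast, then 5 ml of olive oil as a single oral dose, about 16 ml per kg of body weight, and was killed 4 h later. The labels do not state how many rats gave RNA to an array, or the hour of day at which each group was killed, so meal, hour and length of fast cannot be told apart. With 1 array per group there is no replicate check and no p-value. All differences are log2 signal after olive oil minus log2 signal in the fasted array, and sizes of 1.5-fold and 2-fold stand in place of a test.

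In the methionine cycle, methionine is activated to S-adenosylmethionine, the general methyl donor of the cell. After the methyl group has been handed on, the remaining homocysteine is either methylated again, by a folate-dependent or a betaine-dependent enzyme, or sent through transsulfuration to cysteine and taurine. The folate cycle carries one-carbon units from serine and glycine to these reactions and to nucleotide synthesis. Decarboxylated S-adenosylmethionine also supplies the aminopropyl groups of the polyamines spermidine and spermine, which start from ornithine. Liver is the main site of methionine breakdown and of betaine-dependent methylation in the body.

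Of the 36 matched genes, 32 were measured, meaning that their log2 signal, averaged over the arrays, was no lower than that of the median probe set, or 41.4 on the linear scale. Of these 32, 6 were at least 1.5-fold higher after olive oil, namely Nnmt, Azin1, Odc1, Srm, Bhmt and Sardh. Among all 9208 measured genes, 9.46% were that much higher. Cth was the 1 member at least 1.5-fold lower, against 10.1% of all measured genes. At 2-fold, 4 members were higher and 0 lower, where the shares of all measured genes were 3.25% and 2.94%. Members were mostly bright, 31 of them at or above the 75th percentile of mean signal, a stratum of 5505 genes in which 7.01% were higher and 7.43% lower by 1.5-fold or more. The median difference of the 32 members was 0.22, and 22 of them were above 0. The median over all measured genes was -0.01, with 48.3% above 0. With both arrays centred on their median signals the members' median was 0.15 and that of all measured genes -0.09, the same shift for both, and 18 of the 32 members were above 0. The same centring turned the balance of all measured genes past 1.5-fold from 871 higher and 934 lower to 701 and 1172, and left the members at 6 and 1.

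**Figure D1:**
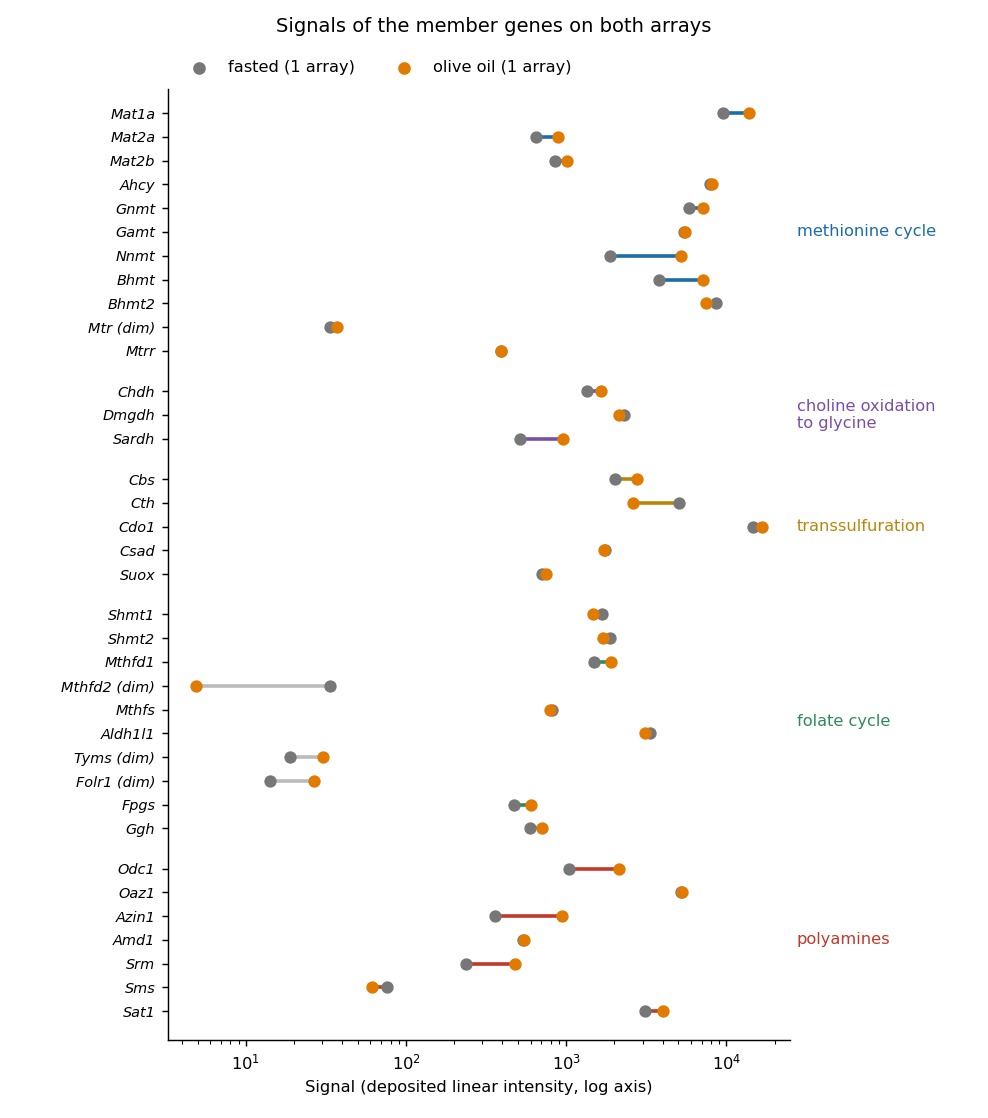
Deposited signal of each matched member on the fasted array (grey) and the olive oil array (orange), on a logarithmic axis, by set; genes under the filter on dim signals are marked. The long bars of measured genes belong to Nnmt (1888 and 5185), Bhmt, Sardh, Odc1, Azin1 and Srm, all higher after olive oil, and to Cth (5028 and 2627), lower.

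The genes that stood apart were few. The smallest of the 7 differences past 1.5-fold was that of Sardh, 0.90, and the largest of the 25 others was that of Mat1a, 0.52, or 1.43-fold. Probe sets that measure the same gene disagree to some degree, and over 2290 genes with at least 2 of them the pooled standard deviation of their differences was 0.35. This scatter describes disagreement between probe sets of the same gene, from whatever source, and holds no variation between rats. Of the 7 members with more than 1 measured probe set, 6 had the same sign on all of them, and Mthfs did not.

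**Figure D2:**
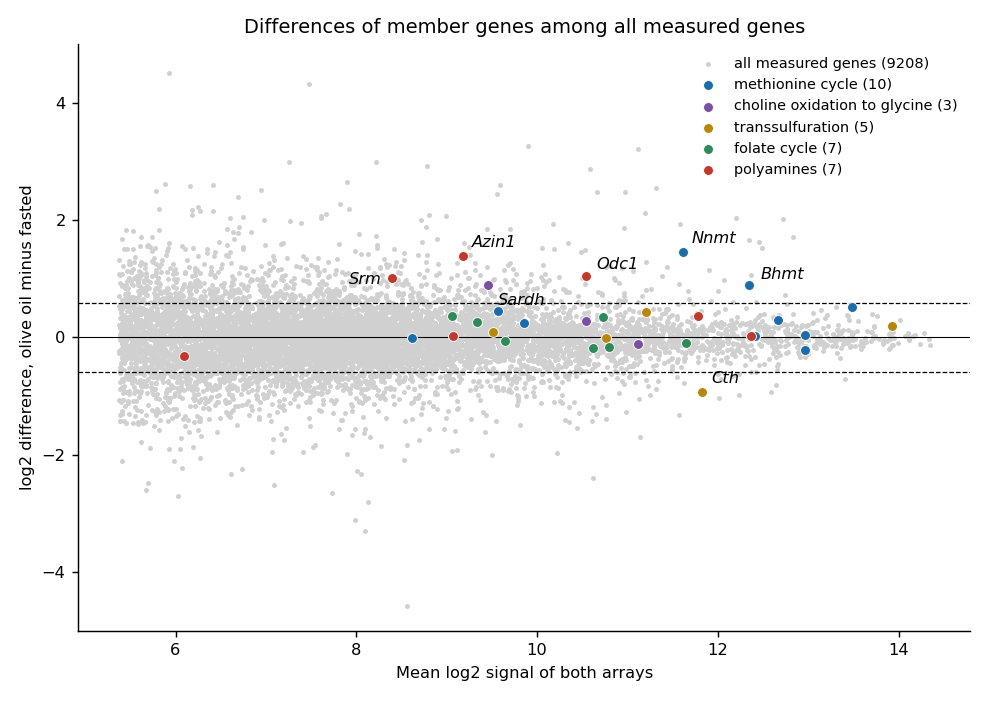
Difference (log2, olive oil minus fasted) against mean log2 signal for 9208 measured genes (grey) and the 32 measured members (coloured by set); dashed lines mark 1.5-fold. The named members lie outside the lines, with Nnmt at 1.46 and Cth at -0.94, while the other 25 lie between them.

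For the polyamine genes, promoter sequences are shown because Odc1 and Srm, consecutive enzymes of the pathway, had close differences, whereas that of Oaz1, the inhibitor of the first enzyme, was near 0. Cth is added as the lone member lower by 1.5-fold or more. The sequences are the 250 bases before the annotated start of each gene, read 5′ to 3′ on the gene's own strand, from RefSeq on the GRCr8 build of the rat genome. Odc1 lies at chr6:46058415-46058664 on the plus strand. Srm lies at chr5:164308752-164309001 on the plus strand. Oaz1 lies at chr7:9536991-9537240 on the minus strand. Cth lies at chr2:249661067-249661316 on the minus strand. Capitals mark matches, on either strand, to 1 of 5 short motifs: the E-box CACGTG, the cAMP response half-site TGACG, the C/EBP-ATF element TGATGNAA, the glucocorticoid receptor half-site AGAACA and the CCAAT box.
Odc1: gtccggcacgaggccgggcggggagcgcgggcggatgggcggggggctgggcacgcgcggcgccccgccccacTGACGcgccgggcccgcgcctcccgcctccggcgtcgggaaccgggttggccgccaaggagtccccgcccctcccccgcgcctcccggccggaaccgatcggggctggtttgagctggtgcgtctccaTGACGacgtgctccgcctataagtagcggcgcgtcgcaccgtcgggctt
Srm: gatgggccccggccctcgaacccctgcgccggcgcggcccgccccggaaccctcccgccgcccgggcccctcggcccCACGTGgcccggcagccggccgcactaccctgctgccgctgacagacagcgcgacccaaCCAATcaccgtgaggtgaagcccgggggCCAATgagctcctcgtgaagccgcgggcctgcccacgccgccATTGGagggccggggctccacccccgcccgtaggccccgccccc
Oaz1: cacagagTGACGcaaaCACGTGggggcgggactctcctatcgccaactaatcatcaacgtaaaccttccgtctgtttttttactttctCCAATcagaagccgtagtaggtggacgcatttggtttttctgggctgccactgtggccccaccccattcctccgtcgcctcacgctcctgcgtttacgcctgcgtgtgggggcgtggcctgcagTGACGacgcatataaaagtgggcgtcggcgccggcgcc
Cth: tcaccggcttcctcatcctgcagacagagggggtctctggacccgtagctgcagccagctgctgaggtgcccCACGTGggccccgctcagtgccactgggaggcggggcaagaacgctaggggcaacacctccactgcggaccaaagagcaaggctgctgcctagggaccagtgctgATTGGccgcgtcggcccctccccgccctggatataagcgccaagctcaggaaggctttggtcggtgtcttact

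The Odc1 stretch held 2 matches to the cAMP response half-site and no other motif of the 5. That of Srm held 1 E-box and 3 CCAAT boxes, so within the stretches shown these neighbouring enzymes shared none of the 5 motifs. Sequence outside the 250 bases before each start, introns included, was not searched. Oaz1 held an E-box, a CCAAT box and 2 cAMP response half-sites, and Cth held 1 E-box and 1 CCAAT box. A promoter entry was matched for 29 of the 37 listed genes, 5 of them among the 7 past 1.5-fold. Azin1 and Nnmt were not matched. These 29 had 30 promoters, since Sardh had 2 entries, of which 1 held an E-box and a CCAAT box and the other no match. An E-box stood in 5 of the 30 promoters. Of these, Sardh and Srm were higher and Cth lower by 1.5-fold or more, and Oaz1 and Shmt1 were within it. Over all 33469 promoters 5.59% held one. Half-sites TGACG were found in 7 of the 30 (18.2% of all promoters), of which Odc1 alone was past 1.5-fold. CCAAT boxes were found in 15 (34.02% of all), glucocorticoid half-sites in 2, those of Mat1a and Suox (17.5% of all), and the C/EBP-ATF element in 0 (3.40% of all). Member promoters were richer in G and C, with a median of 62.6% against 51.2% over all promoters, a property that the motif shares were not adjusted for. A match here is a match of letters and says nothing of binding.

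Polyamine genes held the largest group of differences past 1.5-fold, 3 of 7 measured members (42.9%), with a median difference of 0.36. Of all measured genes 9.46% were that much higher, and of those at or above the 75th percentile of signal 7.01%. Odc1, ornithine decarboxylase, which makes putrescine and sets the pace of the pathway, stood at 1035 without and 2134 after olive oil (probe set 1370163_at). That is 2.06-fold higher, rank 271 from the top among 9208 measured genes. Azin1, the antizyme inhibitor, a protein related to ornithine decarboxylase that binds antizyme and so spares the enzyme from degradation, went from 358 to 936 (1370575_a_at). It was 2.61-fold higher, and its second measured probe set, at 325 and 721, differed by 1.15. A further Azin1 probe set was too dim to judge, at 7.3 and 13.1. Srm, spermidine synthase, stood at 238 and 479 (1367834_at), 2.01-fold higher. All 3 genes were thus brighter after olive oil by about 2-fold or more. Odc1 and Srm lie close to that size, and their differences were 0.97 and 0.93 once the arrays had been centred on their medians.

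The other polyamine genes differed less. Oaz1, antizyme 1, which targets ornithine decarboxylase to the proteasome, was nearly equal at 5237 and 5297. Amd1, S-adenosylmethionine decarboxylase, which supplies the aminopropyl donor, stood at 534 and 544. Neither exceeded a difference of 0.03. Sms, spermine synthase, stood at 76.5 and 61.2, under the 75th percentile of signal, with differences of -0.32 and -0.33 on its probe sets. Sat1, the acetyltransferase that starts polyamine breakdown, stood at 3113 and 4002, a difference of 0.36. The gap between the differences of Odc1 and Oaz1 was 1.03, that between Odc1 and Amd1 1.02, and that between Srm and Sms 1.33. The probe scatter given above amounts to 0.49 for such a gap. These pairs, and those below, were set side by side after their values had been seen.

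Among 16 other measured genes of polyamine metabolism and methionine salvage, the median was 0.14, and 1 gene passed 1.5-fold in each direction. Paox, the peroxisomal oxidase of acetylated polyamines, went from 213 to 504, 2.36-fold higher. Oaz2, a second antizyme, went from 731 to 448, 1.63-fold lower, with -0.97 on its other measured probe set. The gap between Azin1 and Oaz2 was therefore 2.09. Arg1, the liver arginase that provides ornithine, differed by 0.40, and Myc, a transcription factor known to drive Odc1, by 0.38, at 148 and 192. Both lay within 1.5-fold.

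The methionine cycle had 10 measured genes, 8 of them above 0 (6 with centred arrays), with a median of 0.27. At least 1.5-fold higher were 2 (20%), against 9.46% of all measured genes. Nnmt, nicotinamide N-methyltransferase, which uses S-adenosylmethionine to methylate nicotinamide, had the largest difference of all members. Its signal was 1888 without and 5185 after olive oil (1379812_at), 2.75-fold higher, rank 103 from the top. The gene had a single probe set. Bhmt, betaine-homocysteine methyltransferase, which remakes methionine from homocysteine with betaine, went from 3822 to 7127 (1387665_at), 1.86-fold higher, rank 386. Its paralogue Bhmt2, which prefers S-methylmethionine as the donor, went the other way, at 8643 and 7427, a difference of -0.22. In the RefSeq gene table Bhmt and Bhmt2 lie on chromosome 2 with 1 coding gene between them, and Dmgdh follows Bhmt2 with 0 between. The gap between Bhmt and Bhmt2 was 1.12. Probe sequences were not used here, so the extent to which either paralogue's probes bind the other's transcript was not tested.

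S-adenosylmethionine synthesis and use were described by the next genes. Mat1a, the liver form of methionine adenosyltransferase, stood at 9598 and 13755, 1.43-fold higher and the nearest member under 1.5-fold. Mat2a, the form of most other tissues, stood at 652 and 888, with differences of 0.45 and 0.49 on its measured probe sets. The differences of the synthetase genes lay 0.07 apart. Mat2b, the regulatory subunit that partners Mat2a, differed by 0.25, at 848 and 1009. Gnmt, glycine N-methyltransferase, a main consumer of S-adenosylmethionine in liver, went from 5880 to 7194, a difference of 0.29. Gamt, the last enzyme of creatine synthesis and another methyltransferase that uses S-adenosylmethionine, was level at 5422 and 5487. The gap between Nnmt and Gnmt was 1.17, and that between Nnmt and Gamt 1.44. Ahcy, which cleaves S-adenosylhomocysteine to homocysteine, differed by 0.04, at 7914 and 8126.

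Folate-dependent remethylation showed no difference of size. Mtr, methionine synthase, was dim on both arrays, at 33.3 and 37, and took no part in the counts. Mtrr, its reductase, stood at 394 and 389, with -0.02 and -0.15 on its probe sets. Of 12 other measured genes of methyl transfer, 11 lay within 1.5-fold. The exception was Gatm, the first enzyme of creatine synthesis, at 294 and 125, 2.35-fold lower. Pemt, which makes phosphatidylcholine with S-adenosylmethionine, differed by -0.07.

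Choline oxidation, which produces the betaine used by Bhmt and ends in glycine, was represented by 3 genes. Sardh, the mitochondrial sarcosine dehydrogenase, went from 517 to 962 (1372323_at), 1.86-fold higher, rank 390 from the top. Its second probe set, at 179 and 311, differed by 0.80. Dmgdh, the dehydrogenase of the step before, stood at 2308 and 2146, a difference of -0.10, and Chdh, choline dehydrogenase, at 1352 and 1639, a difference of 0.28. Of the 3, Sardh alone passed 1.5-fold, where 9.46% of all measured genes were that much higher.

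**Figure D3:**
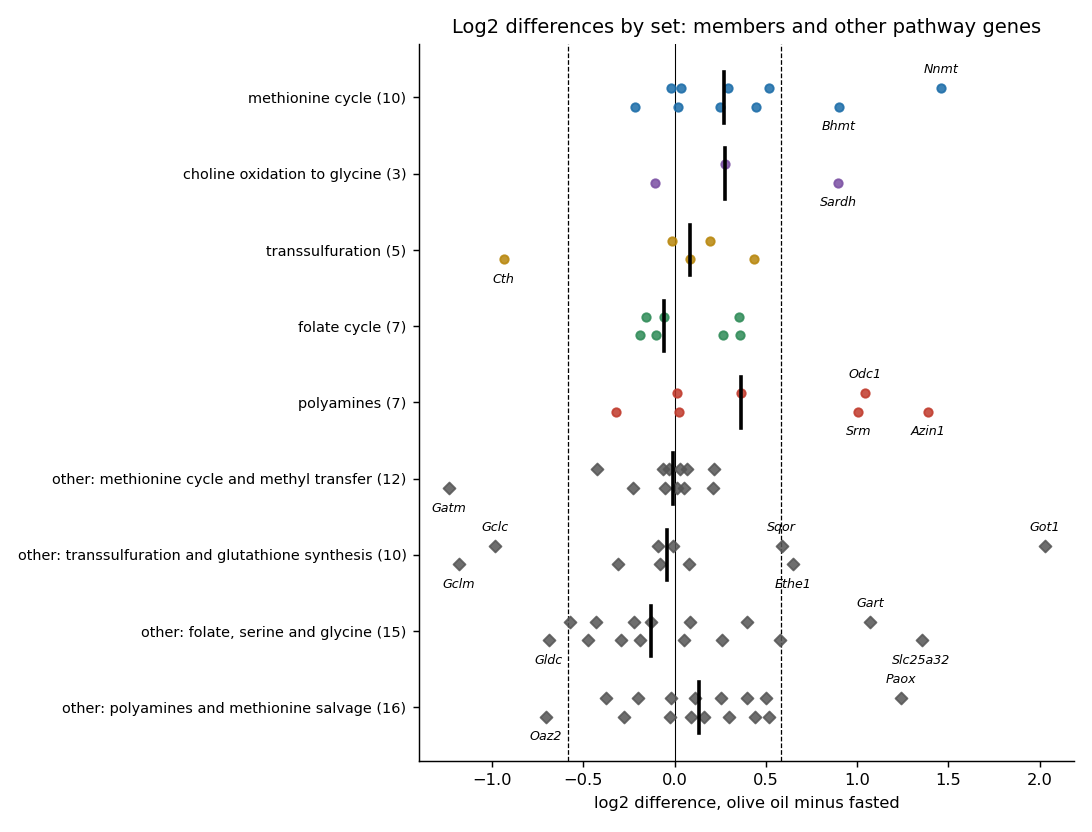
Log2 difference, olive oil minus fasted, of each measured member (circles, upper 5 rows) and of other measured genes of the same pathways (diamonds, lower 4 rows), with the number of genes in brackets; black bars are medians and dashed lines mark 1.5-fold. Polyamine members have the highest median, 0.36, and Gatm (-1.24), Gclm, Gclc and Cth lie farthest to the left.

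Transsulfuration genes went apart from each other. Of 5 measured, 1 (20%) was at least 1.5-fold lower, against 10.1% of all measured genes, and 4 were within 1.5-fold. The set's median was 0.08 and its mean -0.05, on the other side of 0. Cbs, cystathionine beta-synthase, the entry of homocysteine into the path, stood at 2032 and 2751, a difference of 0.44. Cth, cystathionine gamma-lyase, the next enzyme, which releases cysteine, went from 5028 to 2627 (1367838_at), 1.91-fold lower, rank 325 from the bottom. The gap between the 2 consecutive enzymes was 1.37. Cdo1, cysteine dioxygenase, which commits cysteine to sulfinate, differed by 0.20, at 14607 and 16726. Csad, which makes the precursor of taurine, was level at 1740 and 1726. Suox, sulfite oxidase, the last step to sulfate, differed by 0.08, at 707 and 750.

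Other genes that use or oxidise cysteine sulfur went in both directions. Of 10 measured, 3 (30%) were higher and 2 (20%) lower by 1.5-fold or more, and the median was -0.04. The shares of all measured genes were 9.46% and 10.1%. With centred arrays the counts were 1 and 2. Gclc, the catalytic subunit of glutamate-cysteine ligase, which joins cysteine to glutamate in glutathione synthesis, went from 1739 to 879, 1.98-fold lower, with -1.02 on another probe set. Gclm, the modifier subunit of the same enzyme, went from 2363 to 1043, 2.27-fold lower. Gss, the second enzyme of glutathione synthesis, was level at 366 and 365. Cth, Gclc and Gclm were thus lower by similar factors, and their neighbours Cbs and Gss were not lower by 1.5-fold. On the side of mitochondrial sulfide oxidation, Ethe1, the persulfide dioxygenase, was 1.57-fold higher (557 and 874), and Sqor, sulfide quinone oxidoreductase, 1.502-fold (1550 and 2329), just past the size used. With the arrays centred these 2 genes were at 0.58 and 0.51, under 1.5-fold. Got1, which also transaminates cysteine sulfinate, was 4.08-fold higher.

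The folate cycle members that could be measured lay all within 1.5-fold, 3 above and 4 below 0, with a median of -0.06. Shmt1 and Shmt2, the cytosolic and mitochondrial serine hydroxymethyltransferases that charge folate with a one-carbon unit, differed by -0.19 (1676 and 1472) and -0.16 (1883 and 1688). Aldh1l1, which releases the formyl group of folate as carbon dioxide, differed by -0.10, at 3332 and 3107. Mthfd1, the cytosolic enzyme with 3 folate activities, differed by 0.35, at 1498 and 1913. Fpgs, which adds the glutamate tail that keeps folate in the cell, stood at 471 and 604, with 0.36 and 0.35 on its probe sets. Ggh, the hydrolase that removes this tail, differed by 0.27, at 591 and 711. Both values were near or under the probe scatter of 0.35. Mthfs, which returns 5-formyl folate to the active pool, differed by -0.06 on its brightest probe set (821 and 787), by -0.11 on the next and by 0.57 on the third (86.1 and 128).

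Of the folate members, 3 were too dim to count. Mthfd2, the mitochondrial enzyme typical of dividing cells, was listed at 33.6 without and 4.9 after olive oil, the latter under the floor of 12.8. Tyms, thymidylate synthase, was listed at 18.9 and 30.4, and Folr1, a folate receptor, at 14.1 and 26.6. All 3 pairs lie below the filter signal of 41.4, where probe error is large, and no fold is given for them. Of 15 matched proliferation genes, 8 were likewise dim, and 0 of the other 7 were past 1.5-fold. With centred arrays 2 proliferation genes were lower by that much, and 1 with quantile scaling, with loess scaling or with an offset of 16. With no filter on dim signals 5 were lower. With the mean over probe sets or the second brightest probe set 1 was higher.

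Among 15 other measured genes of folate, serine and glycine metabolism, 2 were higher and 1 lower by 1.5-fold or more, and the median was -0.13. Slc25a32, the mitochondrial folate carrier, went from 119 to 304, 2.55-fold higher, with 1.85 on its other probe set. Gart, an enzyme of purine synthesis that takes a formyl group from folate, went from 89.8 to 189, 2.10-fold higher, but differed by 0.29 on its other measured probe set. Gldc, the glycine decarboxylase of the glycine cleavage system, was 1.61-fold lower, at 645 and 400.4, while its partners Amt, Gcsh and Dld differed by -0.29, -0.13 and 0.09. Over all 53 measured other genes of the 4 pathways, 6 (11.3%) were higher and 5 (9.43%) lower by that much, near the shares of all measured genes.

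Genes of the amino acid response, a programme that raises Cth, Mthfd2 and Shmt2 when amino acids are short, lay on both sides of 0. Of 12 measured, 7 were above and 5 below. By 1.5-fold or more, 4 (33.3%) were higher and 1 (8.33%) lower, against 9.46% and 10.1% of all measured genes. With the mean over probe sets or the second brightest probe set the counts were 4 and 0. Cebpb was 2.42-fold, Asns 2.44-fold, Nupr1 1.84-fold and Trib3 1.74-fold higher, Sesn2 was 1.57-fold lower (-0.46 on its other probe set), and Atf4 itself differed by 0.46. Asns was dim in the fasted array, at 29.7, and the probe sets of Trib3 ranged from 0.26 to 1.34.

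Markers of the liver's cell types were also compared, though on a bulk array they cannot tell fewer cells of a type from less RNA per cell. Each sum of signals below mostly follows its brightest markers. All 9 matched hepatocyte markers were measured, 8 of them within 1.5-fold, and their signals summed to 106761 without and 114762 after olive oil. Tat, a hormone-responsive member of that list, was 1.96-fold higher. The 6 measured Kupffer cell and macrophage markers were all within 1.5-fold, with sums of 4303 and 4965. Sums for stellate cells and fibroblasts were 3099 and 3239, with Dcn 1.79-fold higher and Lrat 1.505-fold lower, and those for endothelial cells 3921 and 4378, with Lyve1 1.52-fold higher and Kdr and Stab2 at -0.54 and -0.21. With centred arrays 0 endothelial markers were higher and 1 was lower by 1.5-fold. The differences of Lrat and Lyve1 were within 1.5-fold under at least 1 other scaling. Bile duct markers were dim for 3 of 4 genes, and the measured one, Epcam, went from 179.7 to 123, a difference of -0.55 that passed 1.5-fold with centred arrays. Red cell markers summed to 9353 and 9062, most of it from Hbb (9091.4 and 8851.5), and Alas2 differed by -0.42. All 5 kidney markers were dim. The part of these shifts in the members' differences was not tested.

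**Figure D4:**
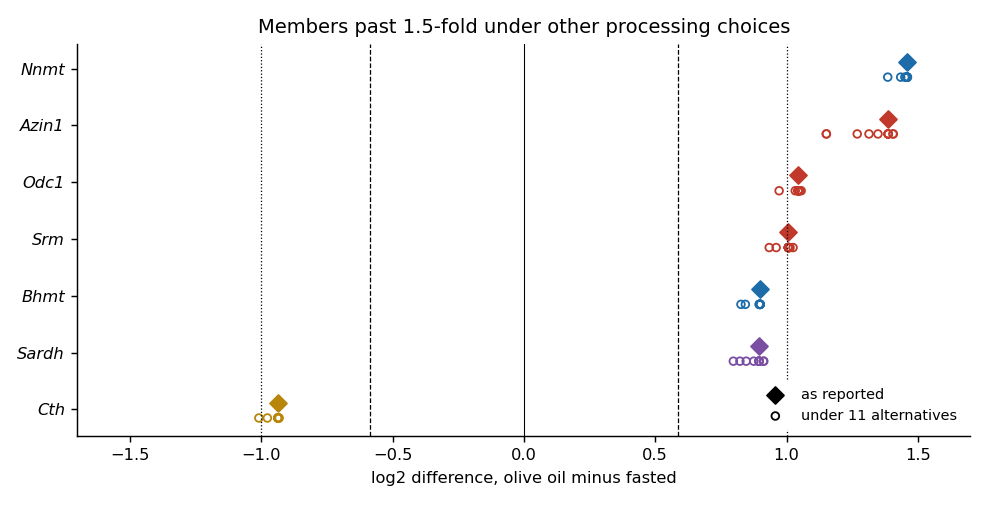
Log2 difference, olive oil minus fasted, of the 7 members past 1.5-fold, as reported (diamonds) and under 11 other processing choices (open circles); dashed lines mark 1.5-fold and dotted lines 2-fold. All points stay outside the dashed lines, and those of Odc1, Srm and Cth lie on either side of 2-fold. For Nnmt, Bhmt, Odc1, Srm and Cth only the scalings and the offset could move the value, so many of their open circles coincide.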

How the data were processed

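Total RNA of liver was labelled with biotin and hybridised to 2 Affymetrix rat arrays, 1 per group, grouped by sample title. The deposited values are linear signal intensities, 1 per probe set and array. Affymetrix Expression Console is named per the submitters' processing notes; for its algorithm and version nothing is given in the sources used here. Trimmed by 2% at each end, the mean was 200.1 on both arrays, so the deposited intensities look scaled to a common level, which takes the bulk of transcripts as constant. No detection flags were used, and the number of arrays limits the precision.

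After 57 control probe sets were set aside, 31042 remained. A floor was set at the 25th percentile of all signals (12.8), log2 was taken, and nothing further was normalized. Genes came from the platform annotation (20826 probe sets with 1 gene, 436 with several, 9780 with none listed), with symbols updated by gene ID through a RefSeq table of GRCr8, which held 20758 of the 20826. A gene under the median mean log2 signal (5.37) was called dim and left out of counts. The rule for naming was every member, and every measured gene of the other pathway lists past 1.5-fold; a few others are named for their role. Members and lists were chosen with earlier results of these data known. Promoters came from a RefSeq table that was searched by symbol. The alternatives were 3 scalings, 3 treatments of low signals, 2 filters, 3 ways of choosing probe sets and a 2-fold size. The functions were tested on simulated data, with less noise than the probe scatter and with changes in bright probe sets only. This checked the code and not the values reported here. Python 3.11.15, numpy 2.4.6, pandas 2.3.3, statsmodels 0.14.6 for loess and matplotlib 3.10.9 were used.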

Additional observations from a re-analysis of the deposited data

How the results depend on the processing

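Under 11 alternatives for scaling, floor, filter and choice of probe set, each of the 7 members past 1.5-fold kept its direction and stayed past that size, with ranges of 1.39 to 1.46 for Nnmt, 1.15 to 1.41 for Azin1, 0.97 to 1.06 for Odc1, 0.93 to 1.02 for Srm, 0.83 to 0.90 for Bhmt, 0.80 to 0.91 for Sardh and -1.01 to -0.93 for Cth. Nnmt, Bhmt, Odc1, Srm and Cth have 1 probe set each and lie well above the floors and filters. Their values could therefore move only with the scaling or the offset, and the other alternatives were no check on them. At 2-fold the count of higher members was 4 as reported, 3 with an offset of 16 and 2 with centred arrays. With no filter on dim probe sets, members at least 1.5-fold lower numbered 2, since Mthfd2 then entered, and those higher 8, with Tyms and Folr1. At the 2-fold size 0 were lower as reported, and 1 with centred arrays (Cth) or with no filter. The median of all members was 0.15 with centred arrays. The folate median turned to 0.10 with no filter, when the dim members entered, and to 0.13 with the mean over probe sets, the new value of its middle gene, Mthfs, whose dimmest probe set differed by 0.57. The polyamine median was 0.68 with a filter at the 75th percentile, which leaves Sms out. A median was taken as moved when it shifted by more than the probe scatter divided by the square root of the number of genes. No paired analysis was possible because each group was a single array. Dim signals limit Mtr, Mthfd2, Tyms and Folr1.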
